A study of Mus musculus with 6 samples.

Results

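The genes described here are 40 genes of S phase and mitosis, the stretch of the cell cycle in which a cell copies its DNA and then divides. They were taken by name from a list of S phase and mitosis genes, by a rule that uses no measured value, although earlier results of these data were known when the list was drawn up. All 40 were among the 20076 genes of the deposited table. All 40 also passed the filter applied before testing (3 or more tumors with a value of 1 or above), as did 19667 genes in all. RNA was sequenced from 6 primary ovarian tumors of C57BL/6 mice, 3 grown in wild-type (WT) hosts and 3 in *Tgm2* knockout hosts that lack transglutaminase 2 in every cell from birth. Mice were 6 to 10 weeks old when they entered the experiments. Every host, WT and knockout alike, received the same ID8 Trp53-/- Brca1-/- cells, a mouse ovarian surface epithelial cancer line that has lost both tumor suppressors, injected under the bursa of both ovaries, and tumors were taken at 6 weeks. The hosts differ in genotype and the cancer cells do not, so *Tgm2* RNA in a knockout tumor can come from the cancer cells. Whether a sample is a single tumor or the pooled tumors of a mouse, and whether the samples were handled on separate days, is not given in the sources used here, and p-values below measure the spread among these 6 samples.

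Cell division runs on a program of gene expression that comes in waves. In late G1 and S phase, E2F transcription factors, freed from pocket proteins such as Rb, switch on genes that load the replicative helicase, supply deoxynucleotides and build the replication fork. In G2 and mitosis, B-MYB (*Mybl2*) with the MuvB complex and FOXM1 switch on genes for cyclin B, mitotic kinases, the kinetochore and the spindle. RNA of these genes is low in resting cells, so their level in a tumor follows the share of cells that are cycling, whether cancer cells, dividing lymphocytes or other stroma. In a bulk tumor, fewer cycling cells and less RNA per cycling cell cannot be told apart.

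The promoters of these genes share short sequence words that mark these waves. RefSeq promoter windows (GRCm38.p6, 250 bases before to 50 bases after the annotated start) matched 32 of the 40 genes, with 33 windows. The CCAAT box, searched as CCAAT on either strand, was in 26 of the 33 windows (78.8%), against 37.4% of all 32851 windows. The cell cycle genes homology region, searched as TTTGAA or TTTAAA on either strand, was in 21 of 33 (63.6%), against 27.6% of all windows. An E2F word, searched as TTTCCCGC or TTTCGCGC or TTTGCCGC or TTTGGCGC on either strand, was in 6 of 33 (18.2%), against 2.26% of all windows. Words of the E2F group can overlap each other, and the groups may overlap too. Of the 15 windows of kinase, checkpoint, kinetochore and spindle genes, 13 held TTTGAA or TTTAAA and 0 held an E2F word, while of the 12 windows of replication and nucleotide genes these numbers were 4 and 5. A match describes the letters and does not show that a factor binds. The 120 bases before the start are shown for 4 genes, *Mcm6* as an S phase gene with E2F words (chr1:128359706-128359825, minus strand), *Plk1* (chr7:122159315-122159434, plus strand) and *Mki67* (chr7:135716380-135716499, minus strand) as mitotic genes with the homology region, and *Ccnb2* (chr9:70421555-70421674, minus strand) for its 3 CCAAT boxes. Capitals mark the words searched, and ATTGG is CCAAT on the other strand.
Mcm6: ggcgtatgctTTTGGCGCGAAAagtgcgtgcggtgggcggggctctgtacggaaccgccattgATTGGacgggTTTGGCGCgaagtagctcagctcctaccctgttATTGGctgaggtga
Plk1: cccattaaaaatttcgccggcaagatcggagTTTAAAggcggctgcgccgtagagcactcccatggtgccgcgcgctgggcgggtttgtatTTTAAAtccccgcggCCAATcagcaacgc
Mki67: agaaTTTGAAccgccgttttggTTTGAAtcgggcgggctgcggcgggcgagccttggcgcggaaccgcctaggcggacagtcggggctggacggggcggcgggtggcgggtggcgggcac
Ccnb2: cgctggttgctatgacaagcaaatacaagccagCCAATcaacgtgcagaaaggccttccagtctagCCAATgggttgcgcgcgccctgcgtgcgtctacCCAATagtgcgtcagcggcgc

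Values are estimated read counts that the authors normalized between samples. The 6 columns sum to between 32316613 and 37717165, which after normalization does not show depth. Steps among values under 20 put 1 counted read pair at 0.947 to 1.08 normalized counts. Over the genes of the deposited table this gives about 33500000 to 36800000 read pairs per tumor. Read pairs not assigned to these genes are not in that total. That estimate rests on the 15.0% to 46.1% of these low values that were whole multiples of the step within 0.005. *Tgm2* was read first as a check of the labels. Its normalized estimated count in WT tumors 1, 2 and 3 was 14978, 12155 and 13180, against 5853, 6071 and 8157 in knockout tumors 1, 2 and 3. All 3 knockout tumors lay below all 3 WT tumors, in the direction of the labels, with a log2 fold change of -1.02 (SE 0.22; limma, unadjusted p = 0.00150). After Benjamini-Hochberg adjustment over all tested genes, p was 0.391.

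Some tumors stood apart from the others in transcripts outside the proliferation genes. In WT tumor 3 the 13 mitochondrial genes took 7.0% of all counts, against 1.79% to 3.59% in the other 5 tumors. Markers of glandular epithelium were also high there. *Epcam*, an epithelial adhesion molecule, had 8047 normalized estimated counts in WT tumor 3 and between 90.5 and 1307 in the others, and *Pigr*, the receptor that carries IgA across epithelia, had 9321 against 10.6 to 332. A list of 13 such genes, chosen after this tumor's values were seen and so without a test, summed to 109691 in WT tumor 3, against 2232 and 14935 in WT tumors 1 and 2 and 49247, 67213 and 1565 in knockout tumors 1, 2 and 3. *Ovgp1*, the oviductal glycoprotein, was its most abundant gene, with 184, 6552 and 9244 in WT tumors against 37108, 55944 and 91.0 in knockout tumors. Knockout tumor 1 was high in ovary markers. The 9 granulosa and steroidogenic markers summed to 45244 there and to between 7806 and 18572 elsewhere, and oocyte markers summed to 2403 against 47.7 to 141. The median of the proliferation genes, and the values of some single genes, are therefore given with and without WT tumor 3.

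**Figure D1:**
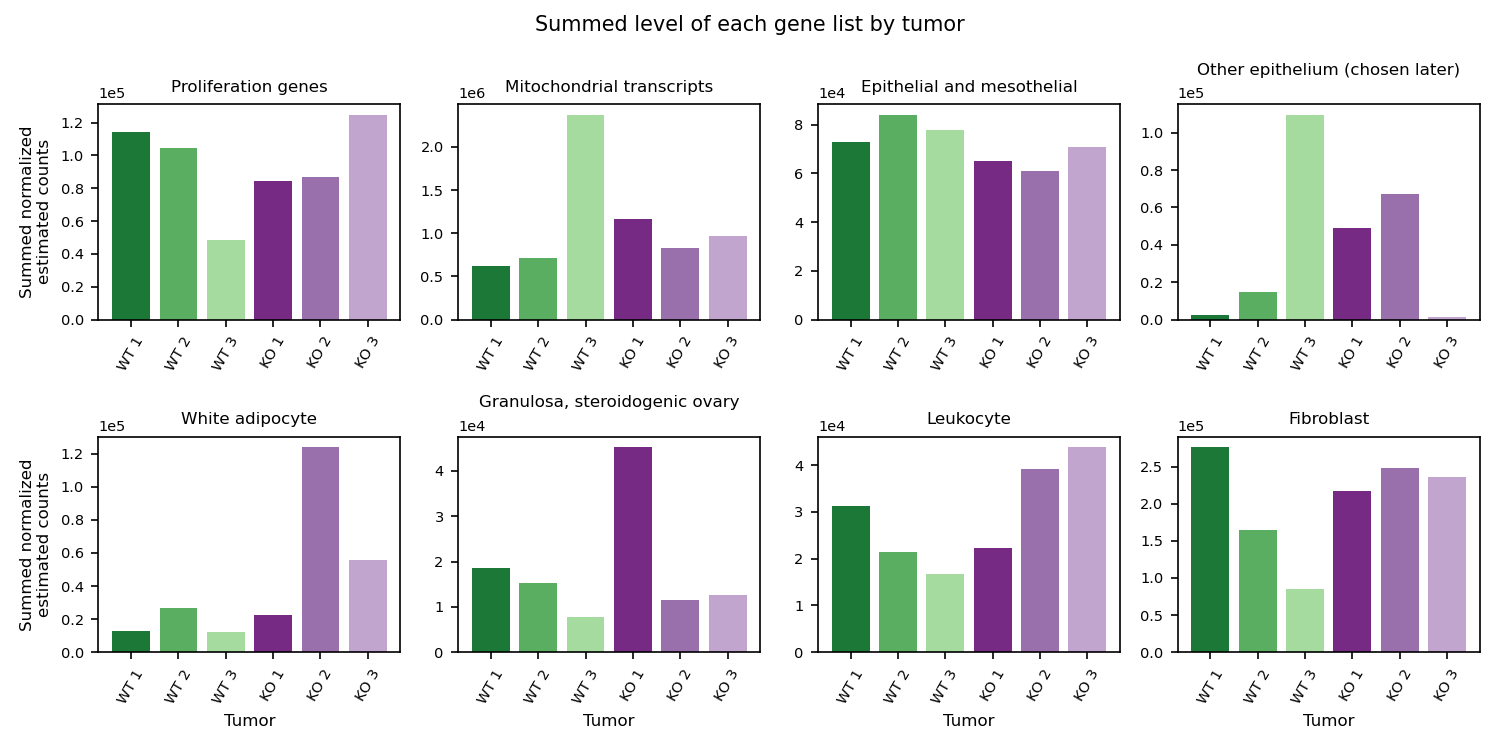
Each panel gives the summed normalized estimated counts of a gene list (vertical axis, from 0) in each of the 6 tumors (horizontal axis), with WT hosts in green and *Tgm2* knockout (KO) hosts in purple. WT tumor 3 has the lowest bar for the 40 proliferation genes and the highest for mitochondrial transcripts and for the epithelial list chosen after its values were seen.

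None of the 40 proliferation genes passed the study's limits (adjusted p under 0.05 and an absolute log2 fold change over 1) in either direction. In the same fit 20 of 19667 genes were called higher in knockout hosts (0.102%) and 0 were called lower (0%). At an unadjusted p under 0.05 the count was 0 of 40, where 1137 of all tested genes (5.78%) passed. The smallest p among the 40 was that of *Cenpf* (limma, unadjusted p = 0.113, adjusted p = 0.889). Values of the 2 groups did not overlap for 1 of the 40, *Ccne2*, where such a separation was found for 10.5% of all tested genes. The log2 fold changes of the 40, knockout over WT, ran from -0.44 (*Ccne2*) to 0.85 (*Cenpf*), with a median of 0.26, against -0.03 over all tested genes. They were above 0 for 33 of the 40, against 47.3% of all tested genes. Standard errors were wide, with a median of 0.39 on the log2 scale, close to the 0.37 of all tested genes. The 95% interval lay wholly between -1 and 1 for 12 of the 40, reached 1 or more for 27 and reached -1 for *Ccne2*, so for most of these genes the interval took in a 2-fold difference with 3 tumors per group.

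WT tumor 3 set the direction of that median. It was the lowest of the 6 tumors for 36 of the 40 genes, while 21.9% of all tested genes were lowest there. The median deviation of the 40 genes from their own 6-tumor mean was -0.99 on the log2 scale in WT tumor 3, and 0.33 and 0.26 in WT tumors 1 and 2. In knockout tumors 1, 2 and 3 it was -0.02, -0.01 and 0.49. Together the 40 genes made up 0.143% of all counts in WT tumor 3, 0.328% and 0.296% in WT tumors 1 and 2, and 0.261%, 0.243% and 0.331% in the knockout tumors. The 3 highest tumors for the program thus came from hosts of both genotypes, and these medians differed more among the WT tumors than between genotypes. Against the mean of WT tumors 1 and 2, the genes were at a median of 0.409 times that level in WT tumor 3, and only *Ccne2* was not below both of them. The part of the mitochondrial and epithelial transcripts in this result was not tested.

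**Figure D2:**
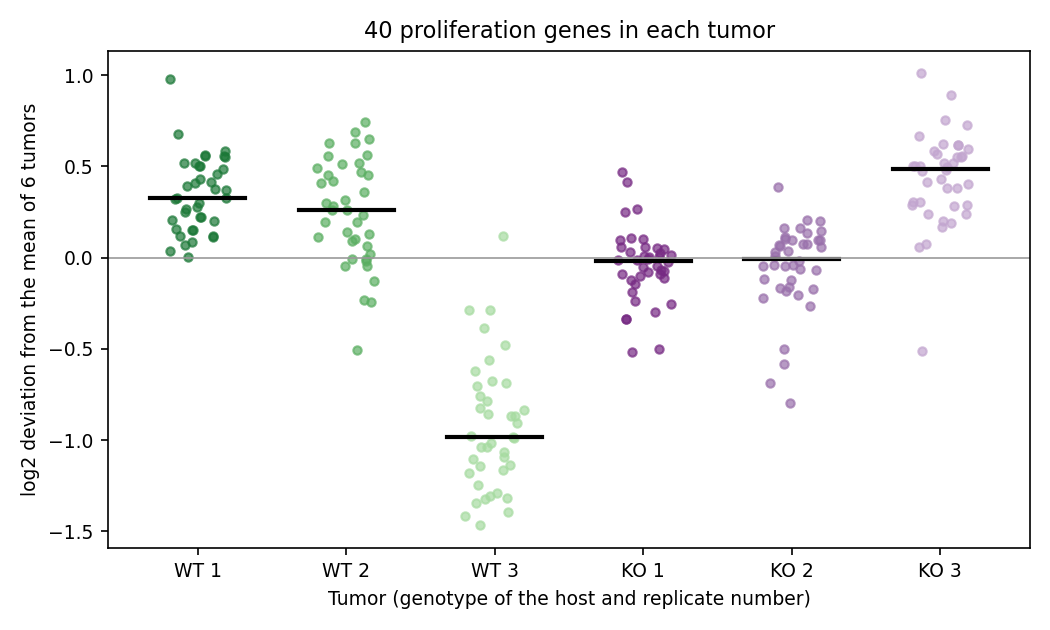
Each point is 1 of the 40 proliferation genes, plotted as its log2 deviation from its own mean over the 6 tumors (vertical axis), for each tumor (horizontal axis), and bars are medians. WT tumor 3 lies low with a median of -0.99, and knockout tumor 3 has the highest median, 0.49.

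Without WT tumor 3, the median log2 fold change of the 40 genes was -0.18, and 4 of the 40 were above 0 (*Mcm4*, *Plk1*, *Aurka* and *Cenpf*), against 48.8% of all tested genes. At an unadjusted p under 0.05 the count was again 0 of 40, where 4.54% of all tested genes passed. *Birc5*, which encodes survivin, then had the smallest p, with a log2 fold change of -0.45 (limma, unadjusted p = 0.113, adjusted p = 0.970). With WT tumor 3 and knockout tumor 1 both left out, the median was -0.10 and 8 of the 40 genes were above 0. The sign of the median therefore depended on a single WT tumor, and no gene was called with it or without it.

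**Figure D3:**
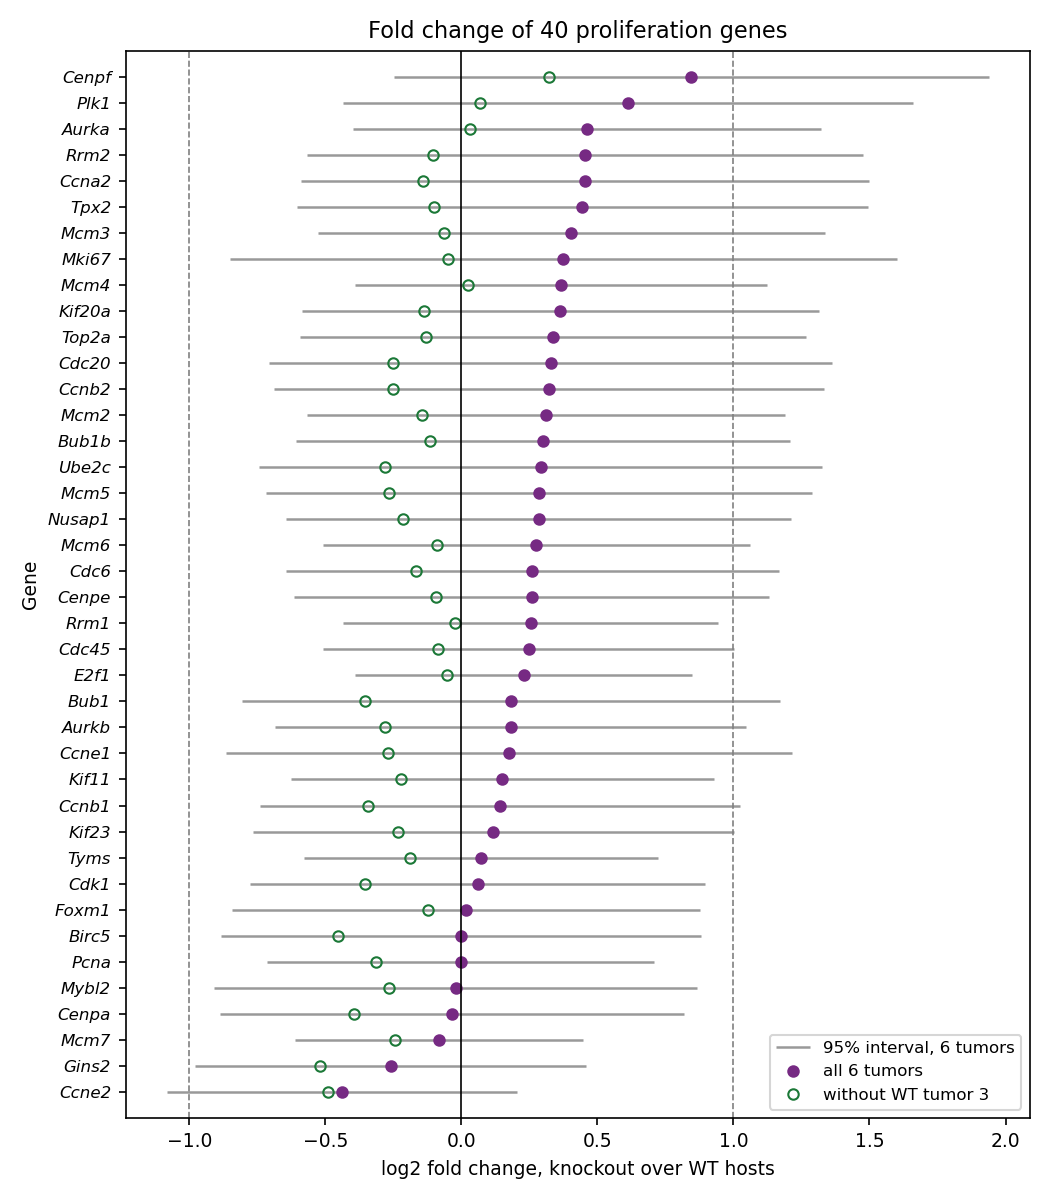
Filled points are log2 fold changes (horizontal axis, knockout over WT hosts) of the 40 genes (vertical axis) from all 6 tumors with their 95% intervals, open circles are the same without WT tumor 3, and dashed lines mark -1 and 1. All intervals cross 0, and 36 of the 40 open circles lie below 0.

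The replication licensing genes encode the 6 subunits of the MCM helicase (*Mcm2* to *Mcm7*) and *Cdc6*, which helps load it at origins. WT tumor 3 was the lowest tumor for all 7. *Mcm6* (chr1:128331590-128359664) had the highest mean of them, with 7239, 5781 and 3028 normalized estimated counts in WT tumors 1, 2 and 3 against 5147, 5373 and 8122 in knockout tumors 1, 2 and 3, the order kept below. Knockout tumor 3 was the highest and WT tumor 3 the lowest, and the groups overlapped. The WT mean was 5349 ± 2138 and the knockout mean 6214 ± 1656 (SD, n = 3 each), a log2 fold change of 0.28 (SE 0.34; limma, adjusted p = 0.925). *Mcm4* had the smallest p of the group, with 3698, 2923 and 1614 in WT tumors against 2851, 2904 and 4513 in knockout tumors. Its log2 fold change was 0.37 (SE 0.33; limma, adjusted p = 0.906), or 0.02 without WT tumor 3. *Mcm7* was less variable, with 4637, 5015 and 3428 in WT tumors and 3544, 3723 and 5098 in knockout tumors. Its log2 fold change was -0.08 (SE 0.23), the smallest error of all 40 genes, with a 95% interval from -0.61 to 0.45. The other 4 genes of the group, *Mcm2*, *Mcm3*, *Mcm5* and *Cdc6*, had log2 fold changes between 0.26 and 0.40. Without WT tumor 3 the group's median moved from 0.29 to -0.14.

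At the replication fork, *Pcna* encodes the sliding clamp that holds DNA polymerase on its template, *Gins2* a subunit of the GINS complex and *Cdc45* a partner of MCM and GINS in the active helicase. *Pcna* (chr2:132249162-132253314) stood at 9822, 12234 and 5750 in WT tumors and at 6997, 9424 and 10416 in knockout tumors. The knockout values lay within the WT range, and the log2 fold change was -0.003 (SE 0.31; limma, adjusted p = 0.999). *Gins2* was at 1698, 2763 and 1263 in WT tumors and 1153, 1721 and 1739 in knockout tumors. It was 1 of the 4 genes not lowest in WT tumor 3, since knockout tumor 1 was lower, and its log2 fold change was -0.26 (SE 0.31; limma, adjusted p = 0.920). *Cdc45* had a log2 fold change of 0.25 (SE 0.33).

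Nucleotide supply genes encode ribonucleotide reductase, which makes deoxynucleotides (*Rrm1*, its large subunit, and *Rrm2*, its small subunit made in S phase), and thymidylate synthase (*Tyms*). *Rrm1* (chr7:102441695-102469771) was at 10145, 10766 and 5832 in WT tumors and 8240, 9892 and 13293 in knockout tumors. Knockout tumor 3 was the highest, and the log2 fold change was 0.26 (SE 0.30; limma, adjusted p = 0.919), or -0.025 without WT tumor 3. *Rrm2*, the subunit whose RNA cycles with S phase, ran from 526 in WT tumor 3 to 2027 in knockout tumor 3, with 1806 and 1576 in WT tumors 1 and 2 and 1271 and 1502 in knockout tumors 1 and 2. Its log2 fold change of 0.46 (SE 0.45; limma, adjusted p = 0.909) became -0.10 without WT tumor 3. *Tyms* had the value nearest 0 of the 3, at 0.07 (SE 0.28).

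Cyclins and Cdk1 drive the phases themselves, cyclin E into S phase, cyclin A through S and G2, and cyclin B with Cdk1 into mitosis. *Ccna2* (chr3:36564865-36572150) was at 3271, 3225 and 943 in WT tumors and 2566, 2698 and 3696 in knockout tumors. WT tumor 3 was at 0.291 times the mean of the other WT tumors, the lowest ratio of the 40 genes, and the log2 fold change over all tumors was 0.45 (SE 0.46; limma, adjusted p = 0.909). *Ccne2* (chr4:11191351-11204779), a cyclin E gene, had the lowest log2 fold change of the 40 genes with all 6 tumors. It was at 363, 469 and 372 in WT tumors and 336, 314 and 240 in knockout tumors, so the highest knockout value was under the lowest WT value. The log2 fold change was -0.44 (SE 0.28; limma, unadjusted p = 0.155, adjusted p = 0.891), or -0.49 without WT tumor 3, where the other 5 genes of the group were also below 0. An exact permutation test adds nothing here, since the gene was singled out for its separation and 3 against 3 tumors cannot give a p below 0.1. The other cyclin E gene, *Ccne1*, had a log2 fold change of 0.17 (SE 0.45) and was lowest in WT tumor 3. *Ccnb1*, *Ccnb2* and *Cdk1* had log2 fold changes of 0.14, 0.32 and 0.06, all with WT tumor 3 lowest and all below 0 without it.

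Among the mitotic kinases and the chromosomal passenger complex, *Plk1* (chr7:122159439-122169873), which encodes polo-like kinase 1, was at 1523, 1031 and 405 in WT tumors and 1140, 1115 and 1791 in knockout tumors. The groups overlapped, and the log2 fold change was 0.61 (SE 0.46; limma, unadjusted p = 0.216, adjusted p = 0.896), or 0.07 without WT tumor 3. *Aurka*, the centrosomal Aurora kinase, was at 714, 801 and 308 in WT tumors and 652, 760 and 933 in knockout tumors. Its log2 fold change was 0.46 (SE 0.38; limma, adjusted p = 0.898), or 0.03 without WT tumor 3. *Birc5*, a passenger complex subunit, was at 1744, 2226 and 766 in WT tumors and 1140, 1469 and 1776 in knockout tumors. All knockout values of *Birc5* fell inside the WT range, with a log2 fold change of -0.0004 (SE 0.39). *Aurkb*, the kinase of that complex, had a log2 fold change of 0.18 (SE 0.38).

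The spindle checkpoint genes *Bub1* and *Bub1b*, with *Cdc20* and *Ube2c* of the anaphase promoting complex, hold and then release sister chromatids. This was the group with the lowest median in WT tumor 3, -1.23 on the log2 scale. *Bub1b* (chr2:118598211-118641591) was at 4153, 2796 and 1430 in WT tumors and 2844, 2425 and 4497 in knockout tumors. Its log2 fold change was 0.30 (SE 0.40; limma, adjusted p = 0.929), and those of the other 3 lay between 0.18 and 0.33. Each of the 4 was below 0 without WT tumor 3.

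At the centromere, *Cenpa* encodes the histone variant that marks it, *Cenpe* a kinetochore motor and *Cenpf* a large kinetochore protein. *Cenpf* (chr1:189640606-189688086) was at 1582, 1154 and 456 in WT tumors and 1743, 1092 and 2541 in knockout tumors. Knockout tumors 1 and 3 were above every WT tumor, while knockout tumor 2 was below WT tumors 1 and 2. The log2 fold change was 0.85 (SE 0.48; 95% interval -0.25 to 1.94; limma, adjusted p = 0.889), the highest of the 40 genes with all tumors and also without WT tumor 3, at 0.32. *Cenpa* was at 1458, 2246 and 854 in WT tumors and 984, 1823 and 1451 in knockout tumors, all within the WT range, with a log2 fold change of -0.03 (SE 0.37). *Cenpe* had 0.26 (SE 0.38).

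Spindle and chromosome structure genes include the kinesin motors *Kif11*, *Kif20a* and *Kif23*, the microtubule proteins *Tpx2* and *Nusap1*, topoisomerase 2 (*Top2a*) and the proliferation marker Ki-67 (*Mki67*). All 7 had positive log2 fold changes, from 0.12 (*Kif23*) to 0.44 (*Tpx2*), all were lowest in WT tumor 3, and all were negative without that tumor. *Top2a* (chr11:98992943-99024189), which untangles sister chromatids, was at 8583, 6643 and 2847 in WT tumors and 6347, 5492 and 9400 in knockout tumors, with a log2 fold change of 0.34 (SE 0.41; limma, adjusted p = 0.920). *Tpx2*, an activator of Aurora A on the spindle, was at 3957, 2860 and 1079 in WT tumors and 2797, 2474 and 4454 in knockout tumors, with a log2 fold change of 0.44 (SE 0.46; limma, adjusted p = 0.909). *Mki67*, whose protein is the usual stain for cycling cells, was at 8426, 3017 and 2087 in WT tumors and 5095, 2858 and 7951 in knockout tumors. Its highest values came from a WT and a knockout tumor, and its log2 fold change was 0.38 with the widest error of the 40 genes (SE 0.54; limma, adjusted p = 0.935).

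The transcription factors of the program were the group least low in WT tumor 3, with a median of -0.48. *Foxm1* (chr6:128362967-128376146) was at 1939, 1154 and 1121 in WT tumors and 1647, 788 and 2005 in knockout tumors, and *Mybl2* was at 589, 408 and 294 in WT tumors and 548, 255 and 485 in knockout tumors. Knockout tumor 2, and not WT tumor 3, was lowest for both. Their log2 fold changes were 0.02 (SE 0.38) and -0.02 (SE 0.39). *E2f1*, the activator of the S phase wave, was at 1365, 1295 and 739 in WT tumors and 1225, 1189 and 1446 in knockout tumors. Its log2 fold change was 0.23 (SE 0.27; limma, adjusted p = 0.919), or -0.05 without WT tumor 3.

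**Figure D4:**
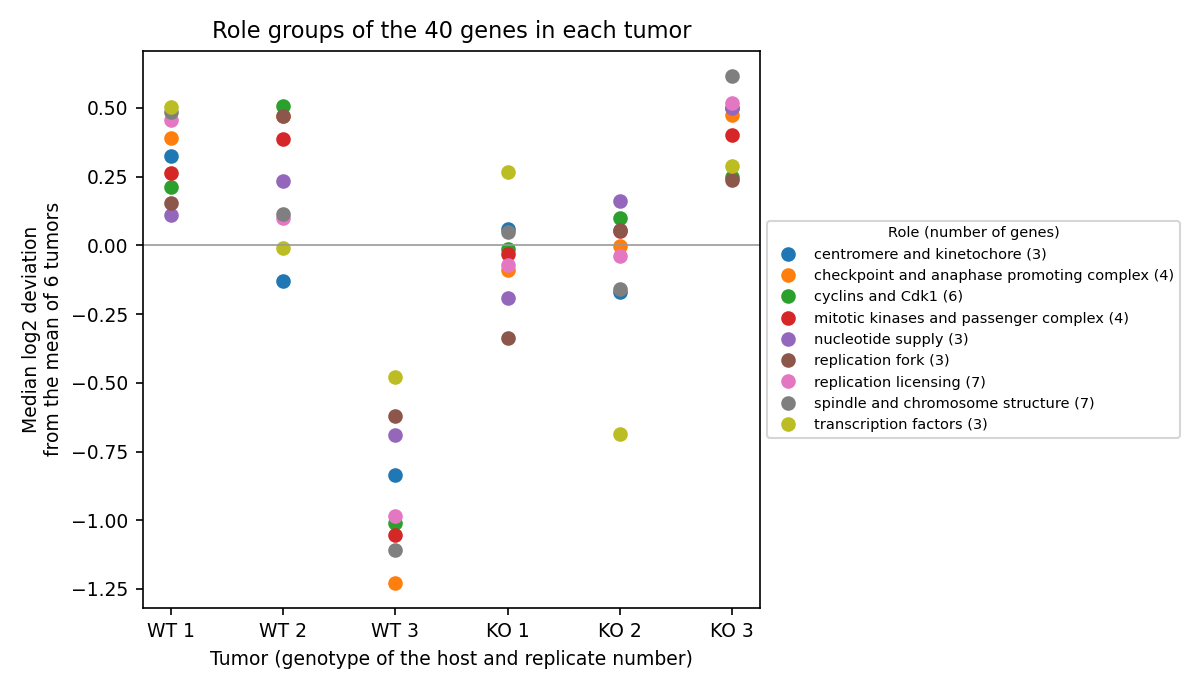
Each point is the median log2 deviation from the 6-tumor mean (vertical axis) of the genes of a role group, by tumor (horizontal axis), with the number of genes in the legend. All 9 groups are below 0 in WT tumor 3, from -1.23 for the checkpoint genes to -0.48 for the transcription factors, and all 9 are above 0 in WT tumor 1 and knockout tumor 3.

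Counts depend on transcript length, so levels of different genes were set side by side only as normalized estimated counts per kilobase of the longest GENCODE M21 transcript. On that scale *Pcna* was the highest, at 6106 ± 2159 in WT and 5893 ± 1159 in knockout tumors (SD, n = 3 each). *Rrm1* followed at 1628 ± 491 and 1913 ± 471, then *Mcm7* at 1472 ± 280 and 1392 ± 287 and *Mcm6* at 1228 ± 491 and 1427 ± 380. The ranges of mean ± SD of these 3 overlapped in each genotype. The genes share the same tumors, and their order within each tumor was not compared. Ordered by the mean over all 6 tumors, the lowest were *Ccne1*, at 91.3 ± 43.4 in WT and 94.6 ± 13.0 in knockout tumors, *Cdc6*, at 105 ± 47.0 and 118 ± 27.4, and *Ccne2*, at 134 ± 19.6 and 98.7 ± 16.7. The order at this end was not the same in each genotype, since *Cenpf*, *Cenpe* and *Mybl2*, at 95.6, 114 and 118 in WT tumors, were below *Ccne2* there.

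Length also sorted the tumors. Over the 12740 genes with a mean above 100 and a known length, the 2553 in the shortest length bin had a median log2 deviation of 0.29 in WT tumor 2 and 0.18 in knockout tumor 2, and the 2548 in the longest of the 5 bins had -0.31 and -0.20. In the other 4 tumors the longest bin was above the shortest, by most in knockout tumor 1 (0.14 and -0.24). Among the proliferation genes the longest were likewise below the shortest in WT tumor 2 and knockout tumor 2 and above them in the other 4 tumors, but the sizes of these gaps were not in the same order. In WT tumor 2 the 10 shortest of them (1518 to 2199 bases) had a median of 0.41 and the 10 longest (4365 to 11130 bases) 0.10, and in knockout tumor 2 these were 0.08 and -0.18. In WT tumor 1 they were 0.24 and 0.47, in knockout tumor 1 -0.03 and 0.06, and in knockout tumor 3 0.40 and 0.53. *Mki67* and *Cenpf*, with transcripts of 10061 and 11130 bases, are the longest of the 40. WT tumor 3 was low at all lengths, with medians of -1.19 and -0.92. With the length trend removed in each tumor, the median log2 fold change of the 40 genes was 0.24, with 33 of 40 above 0.

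**Figure D5:**
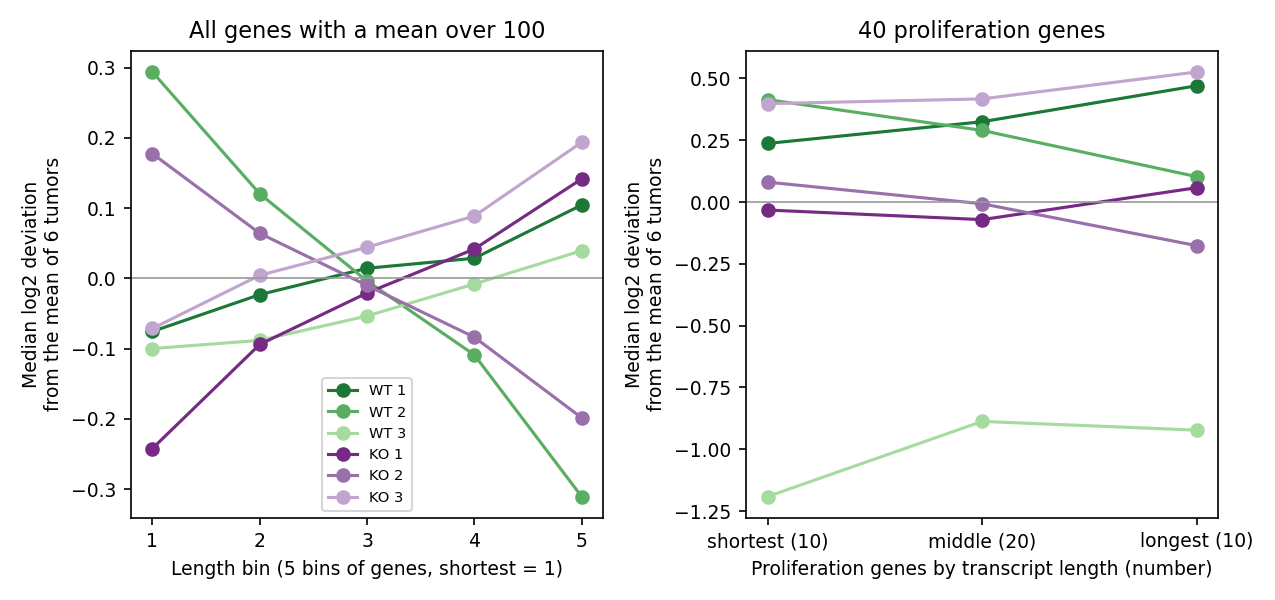
Median log2 deviation from the 6-tumor mean (vertical axes) is shown by 5 bins of transcript length for all genes with a mean over 100 (left) and for the 10 shortest, 20 middle and 10 longest proliferation genes (right), 1 line per tumor. WT tumor 2 and knockout tumor 2 fall with length in both panels, and WT tumor 3 is low at every length among the proliferation genes.

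Other genes of the same pathways were read from further lists. Of 40 other replication genes, 0 passed the limits and 0 had an unadjusted p under 0.05 (background 5.78%), 18 had a log2 fold change above 0 (background 47.3%) and the median was -0.02. WT tumor 3 was lowest for 26 of them. *Cdc7*, the kinase that fires loaded origins, had the smallest p, with 454, 516 and 465 in WT tumors and 389, 278 and 297 in knockout tumors. All knockout values lay below all WT values, with a log2 fold change of -0.59 (SE 0.26; limma, unadjusted p = 0.0544, adjusted p = 0.874), and unlike most genes of the program it was not low in WT tumor 3. Next were *Orc1*, an origin recognition subunit, at -0.74 (SE 0.45), and *Rfc1*, a clamp loader subunit, at 0.31 (SE 0.25). Of 60 other mitosis genes, 0 passed the limits and 0 had an unadjusted p under 0.05, 43 were above 0, the median was 0.17 and WT tumor 3 was lowest for 52. The smallest p values belonged to *Cenpi*, a kinetochore gene, at -0.49 (SE 0.28), *Aspm*, a spindle pole gene, at 0.75 (SE 0.46), and *Lmnb1*, lamin B1, at 0.51 (SE 0.33), with adjusted p of 0.891 each in limma. Without WT tumor 3 the medians of these 2 lists were -0.25 and -0.19. *Hjurp*, the chaperone that deposits CENP-A, went the other way in WT tumor 3, at 8560 against 3103 to 5183 elsewhere, and is named after its values were seen.

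Regulators upstream of the program were read in 3 further lists. For 10 genes of the G1 cyclins, their kinases and the *Myc* family, 0 passed the limits, 5 were above 0 and the median was 0.04. That median ran from -0.04 to 0.15 with each tumor left out in turn. With the mean of the white adipocyte markers, which itself differed between genotypes, as a covariate it was 0.31. *Cdk6* and *Ccnd3*, a G1 kinase and a D-type cyclin partner, had log2 fold changes of 0.46 (SE 0.25) and 0.37 (SE 0.23) and adjusted p of 0.889 and 0.891 in limma. *Ccnd3* was at 5602, 5374 and 3698 in WT tumors and 5709, 5768 and 7313 in knockout tumors, without overlap, and *Ccnd2* had 0.40 (SE 0.27). Of 7 CDK inhibitor genes 3 were above 0, with a median of -0.01. This median ran from -0.08 to 0.26 with each tumor left out in turn, and was -0.91 with the same covariate. *Cdkn2c*, which encodes the Cdk4 and Cdk6 inhibitor p18, was at 0.51 (SE 0.27), *Cdkn2b* at 0.41 (SE 0.38) and *Cdkn1a*, the p21 gene, at -0.15 (SE 0.34). Among 17 genes of the E2F family, the pocket proteins and MuvB, 8 were above 0 and the median was -0.0003. *E2f2* had 0.69 (SE 0.37; limma, adjusted p = 0.889), *Tfdp2*, a dimer partner of E2F, 0.27 (SE 0.21), and *E2f6*, a repressor, -0.30 (SE 0.24). Some of them were more variable than any of the 40 proliferation genes, with standard errors of 0.80 for *Mycn*, which was at 1830 in WT tumor 3 and at 196 to 417 elsewhere, 0.77 for *Cdkn1c* and 0.67 for *Cdkn2a*, named after their values were seen. None of the 34 genes of these 3 lists had an unadjusted p under 0.05, against 5.78% of all tested genes. Over all tested genes, 47.3% were above 0 and 0.102% were past the limits as higher.

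Some cell type markers were also low in WT tumor 3, although their order over the other tumors was not that of the proliferation genes. The 8 leukocyte markers summed to 31329, 21378 and 16777 in WT tumors 1, 2 and 3 and to 22348, 39151 and 43852 in knockout tumors 1, 2 and 3. The 8 fibroblast markers summed to 276144, 164453 and 85729 and to 216916, 248654 and 236369. WT tumor 3 was thus lowest for both lists as well as for the proliferation genes. It also had the lowest sum for the white adipocyte, germinal center B cell, plasma cell, T and NK cell, macrophage, neutrophil, endothelial and granulosa lists, and not for the epithelial, B cell and oocyte lists. Yet it was lowest for only 2 of 8 plasma cell (*Xbp1* and *Sdc1*), 2 of 6 germinal center and 1 of 6 neutrophil markers. *Jchain* and *Mzb1* were higher in WT tumor 3 (2511 and 126) than in WT tumors 1 (1461 and 55.9) and 2 (2231 and 67.7). The neutrophil sum was 471 there against 476 in WT tumor 1. For leukocytes and fibroblasts, the median log2 fold changes were 0.53 and 0.60, or 0.35 and 0.13 without that tumor. Knockout tumor 2, in contrast, was high for both lists and not for the proliferation genes. *Laptm5* and *Col3a1* were the most abundant genes of the 2 lists, at 5422 and 22485 in WT tumor 3. *Col3a1* was lowest there, while *Laptm5* was lower in WT tumor 2, at 4461. The 10 epithelial and mesothelial markers are a mixed list, which includes *Epcam*, named above as a marker of glandular epithelium. They had a median log2 fold change of -0.32 (-0.15 without WT tumor 3). They summed to 72788, 84175 and 77883 in WT tumors and 65150, 61022 and 71013 in knockout tumors. WT tumor 3 was thus not low for the sum of this list. Its members differed there, since *Epcam* was highest in WT tumor 3 while *Wt1*, *Upk3b* (2805, against 4789 to 9502 elsewhere) and *Lrrn4* (488, against 890 to 1341) were lowest. *Wt1*, their most abundant gene, was at 13131 there and between 14803 and 20641 elsewhere, and no marker of these 3 lists was at 0 in any tumor. White adipocyte markers summed to 12826, 26749 and 12293 in WT tumors and 22382, 124038 and 56009 in knockout tumors, with all 10 above 0 in log2 fold change (47.3% of all tested genes), all 10 at an unadjusted p under 0.05 (5.78% of all tested genes) and 1 of 10, *Lep*, past the limits (0.102% of all tested genes). *Cfd* was the most abundant of them, at 62687 in knockout tumor 2. With the adipocyte mean as a covariate the median of the proliferation genes was -0.35, with 11 of 40 above 0 (53.7% of all tested genes). The leukocyte, macrophage, epithelial and neutrophil medians also changed sign, to -0.31, -0.89, 0.12 and 0.07. The granulosa and oocyte medians went from 0.67 and 0.66 to 4.98 and 6.12. The adipocyte markers themselves differed between genotypes, so with 6 tumors this fit cannot separate their level from genotype. The part of the adipocyte markers in the result beyond that was not tested.

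Lymphoid markers were read because dividing lymphoid cells also carry the proliferation genes. B cell markers summed to 732, 473 and 562 in WT tumors and 1685, 1594 and 2433 in knockout tumors, and plasma cell markers to 15741, 17690 and 12874 and to 59559, 82167 and 86368, with median log2 fold changes of 1.57 and 2.44. 1 of the 8 B cell markers, *Cd79a*, and 2 of the 8 plasma cell markers, *Jchain* and *Mzb1*, passed the limits (0.102% of all tested genes), with *Jchain*, the joining chain of secreted antibody, at 1461, 2231 and 2511 in WT and 42273, 62782 and 67245 in knockout tumors. The part of these cells in the values of the proliferation genes was not tested. The 6 germinal center markers, which label dividing B cells, had 0 past the limits and a median of 0.61, with *S1pr2*, the most abundant, at 0.06 (SE 0.23). T and NK cell, macrophage, endothelial and neutrophil lists had 0 genes past the limits and medians of 0.94, 0.59, 0.47 and -0.27. Without WT tumor 3 these were 0.77, 0.29, 0.44 and 0.17. Their most abundant genes were *Trac*, *C1qa*, *Pecam1* and *Csf3r*, with log2 fold changes of 0.73, 0.48, 0.47 and 0.90. The granulosa and oocyte lists had medians of 0.67 and 0.66 over the 8 and 7 genes that passed the filter, with *Star* and *Zp2* as their most abundant genes, and *Zp2* was at 0 in WT tumor 2 and in knockout tumors 2 and 3. Both medians rested on knockout tumor 1, and without it they were -0.66 and -1.95.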

How the data were processed

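The authors quantified paired reads of 100 nucleotides with kallisto (0.46.2 on GRCm38, per the submitters' processing notes), summed transcripts to genes with biomaRt, removed low genes and normalized with DESeq2 size factors; the annotation release and the limit are not given in the sources used here. The deposited values are labelled TPM, but this signal is one of normalized estimated counts, since median-of-ratios size factors computed from them are equal in all tumors (1.00). Tests planned for TPM were therefore kept on log2(value + 1), where fold changes of low genes are understated, and no count model was fitted. limma 3.58.1 (R 4.3.3) with a variance trend compared 3 WT with 3 knockout tumors over 19667 genes, two-sided, with Benjamini-Hochberg adjustment, after testing on simulated data. Members and lists were chosen with earlier results of these data known. Of each role group, the highest gene and the smallest p, and the 5 highest and 5 lowest fold changes, are given in every tumor; of each pathway list, the 3 smallest p; of each cell type list, the most abundant gene. Positions and lengths come from GENCODE M21, and tables from Python 3.11.15. Alternatives changed the pseudocount, filter, scaling, block, weights, trend, covariates, limits and tumors used; leaving out WT tumor 3 with knockout tumor 1, and removing the length trend, were added after seeing the data.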

Additional observations from a re-analysis of the deposited data

How the results depend on the processing

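The count of proliferation genes past the limits was 0 in each direction under every alternative run. Over all genes, 20 were higher, and this became 5 with the replicate block, 4 with no variance trend, 0 with the white adipocyte covariate, 12 without WT tumor 3 and knockout tumor 1, 13 with the length trend removed, 2 to 15 with each tumor left out in turn, and 668 at an unadjusted p under 0.05 with no fold change limit; dropping the fold change limit alone left 20. The count of lower genes was 0, and 0 to 1 with each tumor left out in turn, 1 without both of those tumors and 469 at the unadjusted p with no fold change limit. Leaving out 1 tumor always leaves 1 group with 2, whose spread is pooled with the other group. Same-numbered tumors had correlations of their deviations of -0.298, 0.388 and -0.483 over 12992 genes, so the numbers were not taken to pair the tumors. With the replicate block the median of 0.26 cannot move in a balanced design, and 0 of the 40 proliferation genes were called. The median was -0.35 with the white adipocyte covariate, -0.07 with the epithelial and mesothelial covariate, 0.10 with array weights, -0.18 without WT tumor 3, 0.09 without knockout tumor 3 and 0.47 without WT tumor 1. Without WT tumor 1, *Cenpf* and *Plk1* had an unadjusted p of 0.0375 and 0.0472 in limma (adjusted 0.632 and 0.644). These were 2 of 40 proliferation genes under 0.05, where 7.64% of all tested genes were in that fit. With the adipocyte covariate, *Cenpa* and *Gins2* had 0.0213 and 0.0247 (adjusted 0.461 each), both below 0. These were again 2 of 40, where 10.5% of all tested genes were under 0.05. That covariate itself differed between genotypes, so its fit cannot separate the 2. The sign of the log2 fold change turned for many genes that were called in no fit, and the cause was not tested beyond the tumor or covariate named. With the white adipocyte covariate, the log2 fold change turned to -0.13 for *Mcm2*, -0.17 for *Mcm3*, -0.0203 for *Mcm4*, -0.53 for *Mcm5*, -0.17 for *Mcm6*, -0.11 for *Cdc45*, -0.39 for *Rrm1*, -0.42 for *Rrm2*, -0.77 for *Tyms*, -0.36 for *Ccna2*, -0.70 for *Ccnb1*, -0.48 for *Ccnb2*, -0.46 for *Ccne1*, -1.06 for *Cdk1*, -0.33 for *Aurka*, -0.55 for *Aurkb*, -0.57 for *Bub1*, -0.55 for *Cdc20*, -0.79 for *Ube2c*, -0.10 for *Kif11*, -0.24 for *Kif20a*, -0.65 for *Nusap1*, 0.80 for *Mybl2*, -0.0692 for *E2f1*. With the epithelial and mesothelial covariate, the log2 fold change turned to -0.0497 for *Mcm2*, -0.00142 for *Mcm3*, -0.14 for *Mcm5*, -0.0476 for *Mcm6*, -0.0553 for *Cdc6*, -0.11 for *Tyms*, -0.15 for *Ccnb1*, -0.056 for *Ccnb2*, -0.0885 for *Ccne1*, -0.21 for *Cdk1*, -0.11 for *Aurkb*, -0.18 for *Bub1*, -0.068 for *Bub1b*, -0.0852 for *Cdc20*, -0.0793 for *Ube2c*, -0.0682 for *Cenpe*, -0.12 for *Kif11*, -0.00753 for *Kif20a*, -0.18 for *Kif23*, -0.0477 for *Nusap1*, -0.0321 for *Top2a*, -0.0565 for *Mki67*, -0.15 for *Foxm1*. With WT tumor 3 and knockout tumor 1 both left out, the log2 fold change turned to -0.0628 for *Mcm2*, -0.12 for *Mcm5*, -0.15 for *Cdc6*, -0.039 for *Cdc45*, -0.0445 for *Tyms*, -0.0407 for *Ccna2*, -0.27 for *Ccnb1*, -0.17 for *Ccnb2*, -0.23 for *Ccne1*, -0.19 for *Cdk1*, -0.21 for *Aurkb*, -0.26 for *Bub1*, -0.0454 for *Bub1b*, -0.12 for *Cdc20*, -0.15 for *Ube2c*, -0.0585 for *Cenpe*, -0.19 for *Kif11*, -0.0408 for *Kif20a*, -0.26 for *Kif23*, -0.0873 for *Nusap1*, -0.0193 for *Tpx2*, -0.0716 for *Top2a*, -0.0808 for *Mki67*, -0.25 for *Foxm1*, -0.0202 for *E2f1*. With the length trend removed, the log2 fold change turned to 0.073 for *Pcna*, -0.0211 for *Foxm1*. With array weights, the log2 fold change turned to -0.0379 for *Ccnb1*, -0.0692 for *Cdk1*, -0.00461 for *Bub1*, -0.014 for *Kif23*, -0.0378 for *Foxm1*. With quantile normalization, the log2 fold change turned to 0.0373 for *Birc5*. Leaving out each tumor in turn turned 35 genes in at least 1 fit, with log2 fold changes over the 6 fits from -0.14 to 0.64 for *Mcm2*, -0.0655 to 0.80 for *Mcm3*, -0.27 to 0.63 for *Mcm5*, -0.0898 to 0.54 for *Mcm6*, -0.25 to 0.0289 for *Mcm7*, -0.17 to 0.55 for *Cdc6*, -0.31 to 0.23 for *Pcna*, -0.0849 to 0.42 for *Cdc45*, -0.52 to 0.0448 for *Gins2*, -0.025 to 0.42 for *Rrm1*, -0.10 to 0.78 for *Rrm2*, -0.19 to 0.32 for *Tyms*, -0.14 to 0.76 for *Ccna2*, -0.34 to 0.46 for *Ccnb1*, -0.25 to 0.61 for *Ccnb2*, -0.27 to 0.50 for *Ccne1*, -0.36 to 0.40 for *Cdk1*, -0.28 to 0.47 for *Aurkb*, -0.45 to 0.31 for *Birc5*, -0.35 to 0.49 for *Bub1*, -0.12 to 0.65 for *Bub1b*, -0.25 to 0.62 for *Cdc20*, -0.28 to 0.68 for *Ube2c*, -0.40 to 0.30 for *Cenpa*, -0.094 to 0.66 for *Cenpe*, -0.22 to 0.34 for *Kif11*, -0.14 to 0.62 for *Kif20a*, -0.23 to 0.43 for *Kif23*, -0.21 to 0.61 for *Nusap1*, -0.10 to 0.83 for *Tpx2*, -0.13 to 0.66 for *Top2a*, -0.0488 to 0.96 for *Mki67*, -0.25 to 0.42 for *Foxm1*, -0.27 to 0.32 for *Mybl2*, -0.0529 to 0.39 for *E2f1*. Log2 changes of single genes carry a median standard error of 0.39, and the depth of each tumor is an estimate from the steps of its low values.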
